A study of Mus musculus with 8 samples.

Results

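The nuclear genes of oxidative phosphorylation were described in Beta-TC6, an insulin-secreting cell line from a mouse beta-cell tumour. They were picked by symbol among the protein-coding genes of the RefSeq table for GRCm38.p6, whose coordinates are those of mm10. The rule took every symbol that begins with Ndufa, Ndufb, Ndufc, Ndufs, Ndufv, Uqcr, Atp5 or Cox followed by a digit from 4 to 8, together with Sdha, Sdhb, Sdhc and Sdhd. It found 96 of 21887 genes. Of these, 85 encode subunits: 37 of complex I, 4 of complex II, 8 of complex III, 11 of complex IV, 8 paralogs of complex IV subunits that are restricted to some tissues, and 17 of complex V. The other 11 were caught by their symbols and are no subunits: 8 Ndufaf assembly factors, the supercomplex factor Cox7a2l, and Ndufb4b and Ndufb4c, which are copies of Ndufb4.

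Complexes I and II pass electrons from NADH and succinate to quinone, complex III passes them on to cytochrome c, and complex IV hands them to oxygen. Complexes I, III and IV pump protons across the inner mitochondrial membrane, and complex V, the ATP synthase, makes ATP as protons flow back. In beta cells the ATP made from glucose closes ATP-sensitive potassium channels, which depolarizes the cell and starts insulin release. In other tissues, sites for the factors NRF1, GABPA of the ETS family, YY1 and the estrogen-related receptors are known at many of these genes.

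Chromatin immunoprecipitation and sequencing (ChIP-seq) gave 1 library and 1 peak list for each of 6 targets: the histone marks H3K27Ac and H3K4Me2, the histone variant H2A.Z, the circadian partners BMAL1 and CLOCK, and the beta-cell homeodomain factor PDX1. H3K27Ac lies at active promoters and enhancers, H3K4Me2 at promoters and enhancers whether or not they are active, and H2A.Z at nucleosomes beside many start sites. All libraries came from this line, whose parent tumour was driven by a viral oncogene under an insulin promoter, grown to confluence and fixed with DSG and formaldehyde, and the labels name no treatment, time course or second condition. With no replicates, no difference between genes could be set against the spread between samples, and the 95% intervals given with shares (Wilson) and medians (order statistics) cover counting error over genes only. Library depth ran from 12892080 tags for BMAL1 to 26678241 for H3K4Me2, with 13430083 for H3K27Ac, and a gene without a peak is one where none was detectable at this depth. The line's identity was checked on markers: all 8 beta-cell genes tested, Ins1, Ins2, Pdx1, Nkx6-1, Mafa, Neurod1, Slc2a2 and Iapp, had H3K27Ac at a gene end (median 1866 normalized tags), against 0 of 5 acinar, 0 of 2 ductal, 0 of 2 delta-cell, 0 of 3 fibroblast and 2 of 4 alpha-cell genes. Of 3 hepatocyte genes 1 had it (Apoa2, 122 tags), and of 3 blood-cell genes 1 (Cd68, 299 tags).

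A gene was said to have a peak when the centre of a deposited peak lay within 2 kb of either end of its span. RefSeq promoter entries, 250 bases before to 50 bases after an annotated start, were matched by gene identifier for 78 of the 96 genes. Among the genes with no match were Atp5a1, Atp5mpl, Cox4i1, Cox4i2, Cox6a2, Cox6c, Cox8c, Ndufa2, Ndufa4l2, Ndufaf6, Ndufb4c, Ndufb9, Ndufs1, Sdhc, Uqcrb, Uqcrc2 and Uqcrq. Only bases before the start are printed here, 5′ to 3′ on the strand of the gene, from the RefSeq table for GRCm38.p6. The first 5 stretches show in capitals the NRF1 motif in its strict form, a palindrome made of GCGCA followed directly by its reverse complement.

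Atp5g2: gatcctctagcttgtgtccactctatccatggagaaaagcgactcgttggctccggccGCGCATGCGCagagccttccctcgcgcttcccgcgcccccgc
Atp5k: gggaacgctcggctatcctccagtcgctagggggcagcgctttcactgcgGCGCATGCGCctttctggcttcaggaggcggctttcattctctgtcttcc
Ndufa11: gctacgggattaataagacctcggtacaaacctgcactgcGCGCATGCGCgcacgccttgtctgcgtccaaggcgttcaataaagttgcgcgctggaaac
Ndufaf4: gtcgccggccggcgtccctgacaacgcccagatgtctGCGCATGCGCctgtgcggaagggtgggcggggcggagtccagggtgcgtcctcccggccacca
Cox6a1: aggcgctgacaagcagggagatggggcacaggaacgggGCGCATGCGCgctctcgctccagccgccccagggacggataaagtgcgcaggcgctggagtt

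They lie at chr15:102671048-102671147 (Atp5g2, minus strand), chr5:108434400-108434499 (Atp5k, minus), chr17:56717662-56717761 (Ndufa11, plus), chr4:24897933-24898032 (Ndufaf4, plus) and chr5:115349059-115349158 (Cox6a1, minus). The palindrome began 42 bases before the start in Atp5g2, which encodes a c-ring subunit of the ATP synthase, 50 before in Atp5k, 60 before in Ndufa11, 113 before in Ndufaf4 and 162 before in Cox6a1. Atp5g2 and Ndufa11 had H3K27Ac at a gene end, while Atp5k, Ndufaf4 and Cox6a1 had H3K4Me2 without it.

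The next stretches carry letters that go with the clock question. CACGTG, the canonical E-box bound by BMAL1 and CLOCK, is in capitals in Atp5g1 and Ndufa7, where neither factor had a peak. In Uqcr11, which did have a BMAL1 peak, no CACGTG was found in the 300-base window. That peak was centred 330 bp after the start and lay outside the window, so the bases under it were not searched. The capitals in Uqcr11 mark the ETS letters CCGGAAGT. In Atp5g1 the capitals also mark CCAAT or its complement.

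Atp5g1: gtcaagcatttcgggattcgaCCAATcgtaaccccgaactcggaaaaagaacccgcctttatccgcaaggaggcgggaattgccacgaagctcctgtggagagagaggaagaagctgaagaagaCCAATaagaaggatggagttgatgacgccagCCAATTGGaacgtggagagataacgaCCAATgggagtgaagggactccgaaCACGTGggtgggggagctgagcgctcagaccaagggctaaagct
Ndufa7: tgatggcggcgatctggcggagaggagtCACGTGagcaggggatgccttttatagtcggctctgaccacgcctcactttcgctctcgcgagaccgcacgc
Uqcr11: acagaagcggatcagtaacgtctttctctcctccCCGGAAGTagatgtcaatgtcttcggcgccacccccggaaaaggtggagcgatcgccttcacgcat

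These are chr11:96075632-96075881 (Atp5g1, minus strand), chr17:33824472-33824571 (Ndufa7, plus, at the outer of its 2 annotated starts) and chr10:80406822-80406921 (Uqcr11, minus). A match is a description of the letters, and no match says only that these letters are not in this window.

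H3K27Ac was present at a gene end of 68 of the 96 oxidative phosphorylation genes, a share of 70.8% (61.1 to 79), where 40.2% of all protein-coding genes had it. H3K4Me2 was present at 80 genes (83.3%, 74.6 to 89.5), against 56.2% of all genes. H2A.Z was present at 40 (41.7%, 32.3 to 51.7), against 35.6% of all genes. The intervals for H3K27Ac and H3K4Me2 thus lay above the share over all genes, and the interval for H2A.Z included it. All 3 chromatin features were found together at 31 genes (32.3%) against 20.9% of other genes, and none of them at 11 (11.5%), where the share over all genes was 37.8%.

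**Figure D1:**
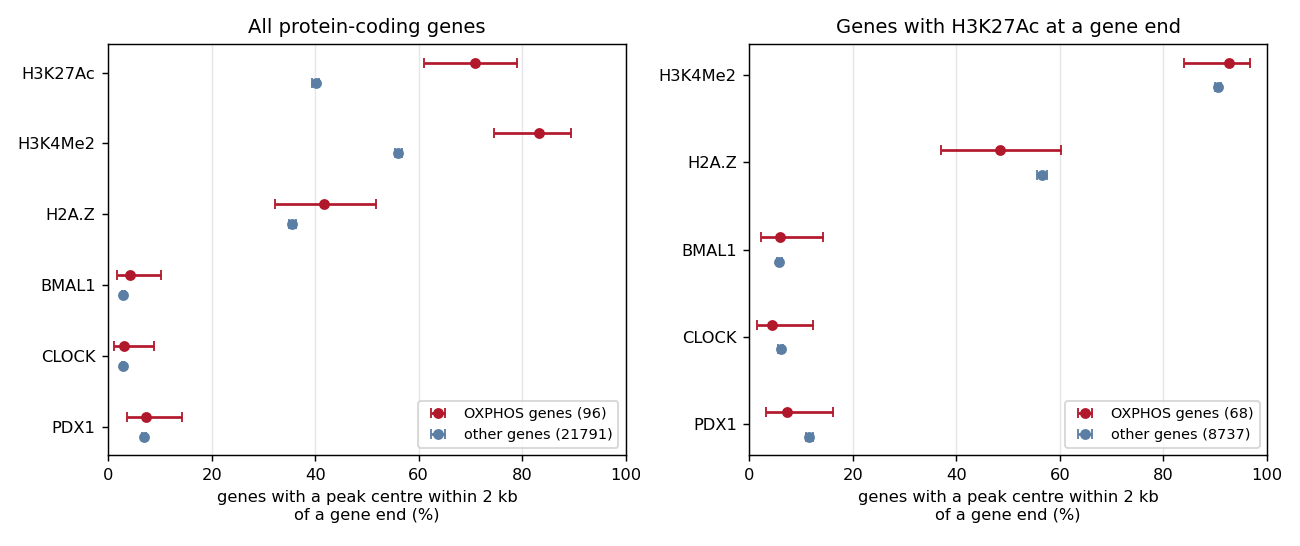
Share of genes with a peak centre within 2 kb of a gene end, in percent, by peak list, for oxidative phosphorylation (OXPHOS) genes and other genes; bars are Wilson 95% intervals. Left, all protein-coding genes, where the H3K27Ac share was 70.8% against 40.1% of other genes; right, genes with H3K27Ac at a gene end, where every interval of the OXPHOS genes included the share of the other genes.

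The plot of shares by peak list shows that the separation lay in H3K27Ac and H3K4Me2. These genes are short, with a median span of 7228 bp against 17239 bp for other genes, and 54 of 96 (56.2%) had the end of another gene within 1 kb, against 24.7% of other genes. Other genes with a span of up to 25 kb, a comparison added after the data were seen, had H3K27Ac at 35.2% and H3K4Me2 at 48.2%. When only peaks at least 8 times over input were kept, H3K27Ac stood at 30.2% of the oxidative phosphorylation genes against 17.6% of other genes, whereas H3K4Me2 fell to 7.29% against 7.23% and no longer set them apart.

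Among acetylated genes, those with H3K27Ac at a gene end, the oxidative phosphorylation genes carried the other features about as often as the rest. H3K4Me2 was present at 63 of the 68 acetylated genes of the rule (92.6%, 83.9 to 96.8), where 90.6% of all acetylated genes had it. H2A.Z was present at 33 (48.5%, 37.1 to 60.2), where the share of all acetylated genes was 56.5%. At 8 times over input, the order for H2A.Z was the other way round, with 17.2% (5 of 29) against 13.8% of other acetylated genes. In every other setting the H2A.Z share stayed below that of other acetylated genes, with an interval that included theirs. With starts only, for example, it was 43.6% (31.4 to 56.7) against 56%.

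The plot of each gene against each list gives the calls one by one. The commonest patterns were H3K27Ac and H3K4Me2 without H2A.Z (32 genes) and all 3 together (31). Their shares were 33.3% and 32.3%, against 15.4% and 20.9% of other genes. H3K4Me2 without H3K27Ac was found at 17 genes. Of these, 10 were without H2A.Z (10.4%, against 9.04% of other genes) and 7 with it (7.29% against 10.7%). H3K27Ac without H3K4Me2 was found at 5. They were Ndufc1, Ndufv1 and Sdhb without H2A.Z (3.12% against 2.07%), and Atp5o and Cox6c with it (2.08% against 1.73%).

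**Figure D2:**
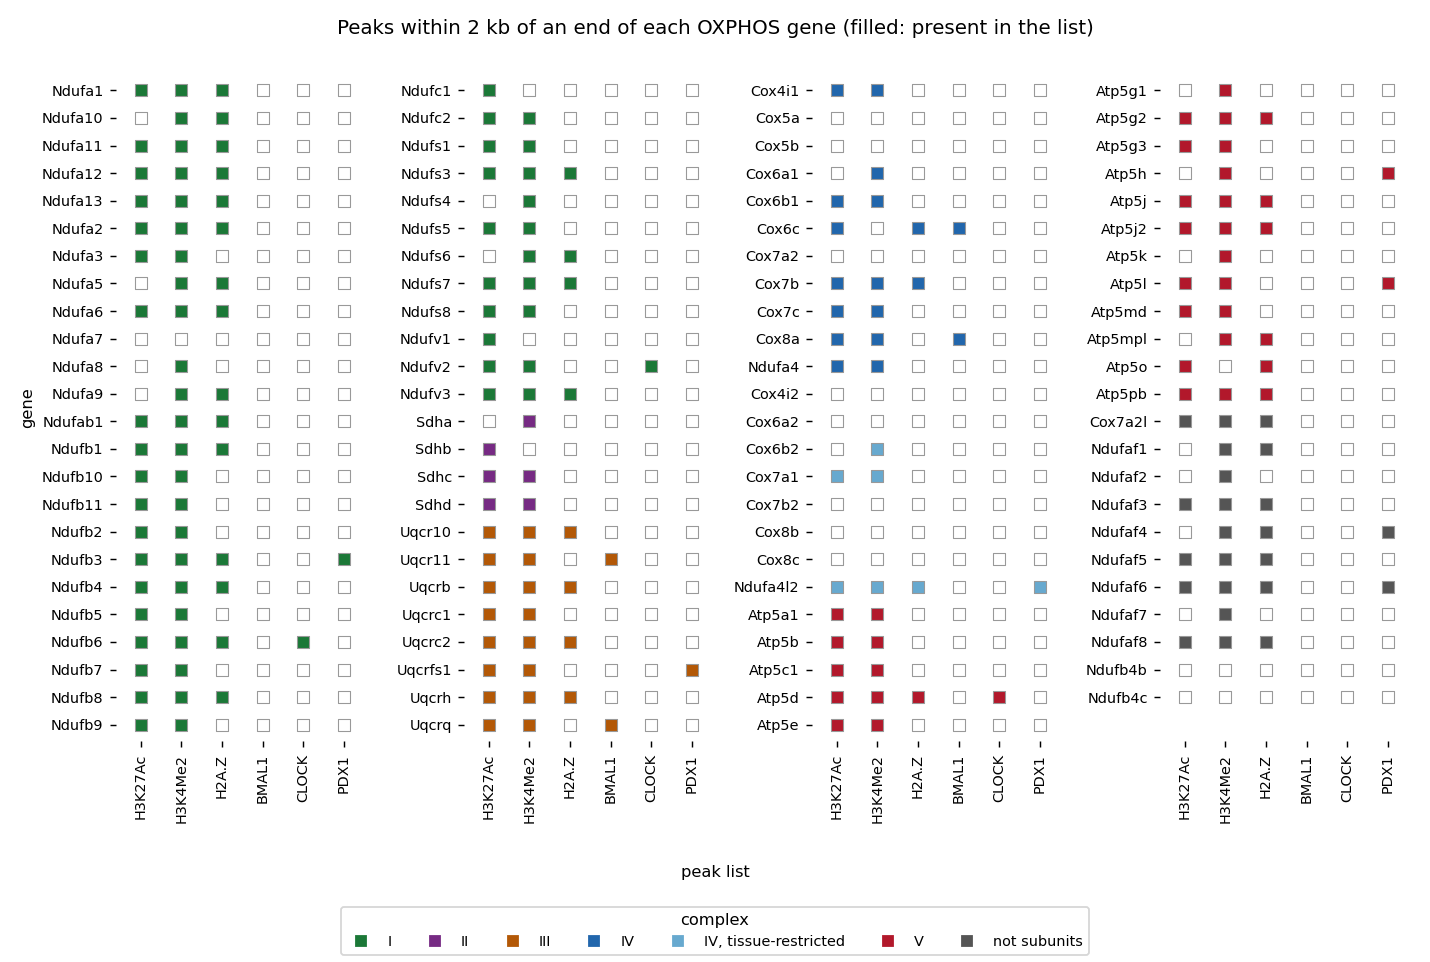
Calls for 95 of the 96 genes (rows) in the 6 peak lists (columns); a filled square means a peak centre within 2 kb of a gene end, and its colour gives the complex. The H3K27Ac and H3K4Me2 columns are mostly filled except for the tissue-restricted paralogs of complex IV, H2A.Z was at 41.7% of the 96 genes, and the columns of BMAL1, CLOCK and PDX1 hold 4, 3 and 7 squares.

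Complex I takes electrons from NADH. Of its 37 genes, 30 had H3K27Ac, 34 H3K4Me2 and 19 H2A.Z, where the shares over all genes were 40.2%, 56.2% and 35.6%. In normalized tag counts (tags in the interval per 10000000 tags of the library), Ndufv1 and Ndufv2, both of the catalytic core that binds and oxidizes NADH, had 25.3 and 425 tags of H3K27Ac. Ndufs7 and Ndufs8, core subunits that hold iron-sulphur clusters, had 131 and 137, and Ndufs3, another core subunit, had 81.2. Counts of core genes thus ran from 25.3 to 425 tags. The interval of 425 tags at Ndufv2 also lay at Ankrd12, and Ndufv2 had 222 tags at its own start. Ndufs4, whose loss causes encephalopathy in mice and people, was among the accessory genes without H3K27Ac and had an H3K4Me2 interval of 100.1 tags.

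The electron entry from succinate, complex II, has its genes far apart in the genome. Sdhd, an anchor subunit, had an H3K27Ac count of 122 tags in an interval that also lay at Timm8b and Nkapd1. Sdhb, the iron-sulphur subunit, had 49.9 tags and no H3K4Me2, and Sdhc, the other anchor, had 38.7. Sdha, the flavoprotein, had no H3K27Ac within 2 kb: the nearest interval was centred 4768 bp away, while an H3K4Me2 interval of 109.5 tags lay 278 bp from its end. None of the 4 had H2A.Z, where 35.6% of all genes did.

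Complex III carries electrons from quinone to cytochrome c. All 8 of its genes that the rule took had both H3K27Ac and H3K4Me2, where 36.3% of other genes had both. H2A.Z was present at 4, against 35.6% of other genes. The 8 genes were Uqcr10, Uqcr11, Uqcrb, Uqcrc1, Uqcrc2, Uqcrfs1, Uqcrh and Uqcrq. Their H3K27Ac counts spread from 17.1 tags in Uqcrc1, a core subunit, to 413 in Uqcrh, the hinge subunit, around a median of 60.3. Cyc1, a complex III gene whose symbol the rule did not take, had 11.9 tags of H3K27Ac and no H3K4Me2. The 4 H2A.Z counts had a median of 38.1 tags, and 3 of them, Uqcrh with 44.8, Uqcr10 with 40.0 and Uqcrc2 with 36.2, were among the 5 highest of all genes of the rule. Ndufaf6 with 44.3 and Ndufa10 with 42.7 were the other two, and Ndufa10 had that H2A.Z and 131 tags of H3K4Me2 but no H3K27Ac.

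In complex IV, 7 of the 11 widely used genes had H3K27Ac at a gene end and 7 had H3K4Me2 there. Of the 8 tissue-restricted paralogs 2 had H3K27Ac, and 5 had none of the 3 chromatin features. Cox4i1, the regulatory subunit used in most tissues, had 161 tags of H3K27Ac and 204.3 of H3K4Me2, while its lung-associated paralog Cox4i2 had no peak in any list. Cox8a, the common form of the smallest subunit, had 183 tags of H3K27Ac, and neither Cox8b of heart and muscle nor Cox8c of testis had any peak. Cox6b1 had 51.4 tags and testis Cox6b2 had only H3K4Me2, with 49.5. Cox7b had 68.5 tags and Cox7b2 no peak.

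For 2 pairs the order by gene ends was not of that kind. Neither Cox6a1 nor muscle Cox6a2 had H3K27Ac, though Cox6a1 had 99.7 tags of H3K4Me2 and Cox6a2 nothing. Cox7a2, the common form, had no peak within 2 kb of the ends of its span, while muscle Cox7a1 had weak intervals of 24.6 tags for H3K27Ac and 37.1 for H3K4Me2. Ndufa4 had 102.8 tags and its paralog Ndufa4l2, known as a target of hypoxia, had 17.1. Ndufa4l2 and Cox7a1 were the only acetylated genes of the restricted group.

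Where the annotated start lies inside the span, the rule of gene ends missed it. Cox7a2 and Cox5a, which encodes a matrix-side subunit, counted as empty in all 6 lists, yet each had H3K27Ac and H3K4Me2 at its RefSeq start. Cox5a spans chr9:57517328-57532427 with its RefSeq start at 57521232, and Cox7a2 spans chr9:79755241-79771422 on the minus strand with its start at 79759853. At the start of Cox5a an H3K27Ac interval of 153 tags was centred 301 bp away and an H3K4Me2 interval of 121 tags 1256 bp away. At the start of Cox7a2 the values were 70.0 tags at 289 bp and 78.0 tags at 143 bp. Both were above those of Cox7a1, 24.6 and 37.1, so by its start this pair had the order of the others. Among the 78 genes with a RefSeq start, H3K27Ac was called at both the gene ends and the start in 53, at a gene end only in 2 (Ndufb4 and Ndufb6) and at the start only in these 2. By start alone, 55 of 78 (70.5%) had H3K27Ac, against 40.4% of other genes.

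That leaves Cox5b and Ndufa7 as the widely used subunit genes with none of the 6 lists at their ends or start. Cox5b, another matrix-side subunit of complex IV, had its nearest H3K27Ac interval 16160 bp from an end. Ndufa7 starts 10 bp from the ribosomal protein gene Rps28, and its nearest H3K27Ac interval, of 8.94 tags, was 3189 bp from an end. Whether reads from these regions could be placed uniquely was not tested. Ndufb4b and Ndufb4c, the copies of Ndufb4, were also empty, with the nearest H3K27Ac intervals 138329 and 60595 bp away.

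The ATP synthase, complex V, had the highest median H3K27Ac count. Of its 17 genes 13 had H3K27Ac, with a median of 177 tags, and 16 had H3K4Me2, against 40.2% and 56.2% of all genes. All 5 genes of the catalytic F1 part had H3K27Ac. The counts were 385 tags at Atp5d, 334 at Atp5b, the catalytic beta subunit, 193 at Atp5a1, 87.1 at Atp5c1 and 41.0 at Atp5e. Those of Atp5d and Atp5b came from intervals away from the RefSeq start, where the counts were 214 and 142. Of the 3 c-ring genes, which encode the same mature protein, Atp5g2 had 281 tags and Atp5g3 151, while Atp5g1 had H3K4Me2 of 87.7 tags and its nearest H3K27Ac interval 65391 bp away. The medians of the complexes stand on 3 to 30 acetylated genes each, and the spread within complex I, from 12.7 to 651 tags, covered all of them.

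**Figure D3:**
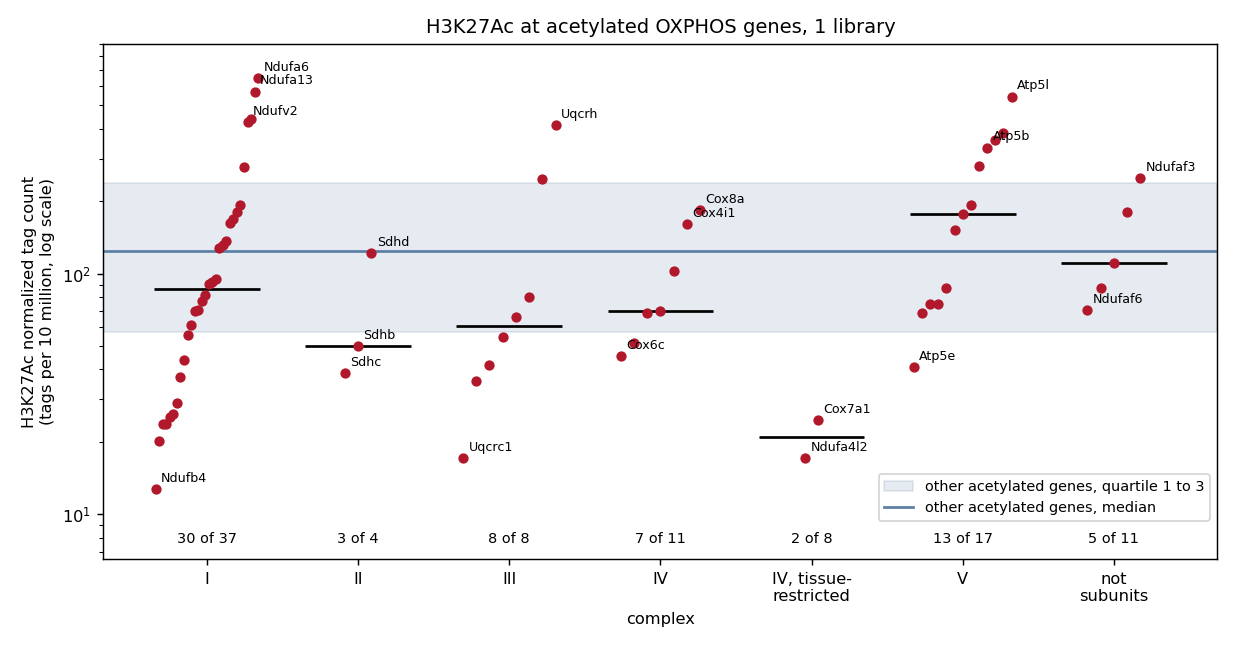
Highest H3K27Ac normalized tag count at each acetylated oxidative phosphorylation gene (points; tags per 10000000, log axis) by complex; black lines are medians, the blue line and band the median and the quartiles of other acetylated genes, and the numbers at the bottom count acetylated genes. The medians run from 20.9 in the tissue-restricted paralogs to 177 in complex V, and the points of complex I span the whole range.

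The plot of H3K27Ac by complex also sets the genes against the rest of the acetylated genome. Over the 68 genes the median H3K27Ac count was 84.2 tags (70.0 to 127), against 124 (120 to 127) for 8737 other acetylated genes. The interval of the 68 genes included the others' median. By the quartiles of those other genes, 21 of the 68 fell in the lowest, 21 in the second, 13 in the third and 13 in the highest. Their intervals had a median width of 1082 bp (979 to 1394) against 1485 bp (1462 to 1509). With a 5 kb window (1295 bp, 1080 to 1550, against 1545), with any overlap, and at 8 times input, the interval of the width reached the others' median. Other acetylated genes with a span of up to 25 kb had medians of 122 tags and 1476 bp. Per kb of interval the medians were closer, 76.0 tags (68.4 to 87.1) against 82.5 (81.4 to 83.7). H3K4Me2 counts had medians of 99.7 and 100 tags, and H2A.Z counts 15.1 in both sets.

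Some of the highest counts did not come from the start of the gene. The 5 highest were Ndufa6 with 651 tags, Ndufa13 with 571, Atp5l with 544, Ndufb6 with 439 and Ndufv2 with 425. Only that of Ndufa13, at chr8:69900904-69903893 and also at Tssk6, lay within 2 kb of a RefSeq start. Ndufa6 had 91.6 tags at its start, Atp5l 192 and Ndufv2 222, and Ndufb6 had no H3K27Ac interval there: its interval of 439 tags lay 1495 bp outside its far end, at Smim27 and Topors. The same held for Atp5d and Atp5b, with 214 and 142 tags at their starts. For 48 of 55 acetylated genes with a RefSeq start (87.3%) the highest interval was within 2 kb of it, as for 86.9% of other acetylated genes. With starts alone the median was 87.1 tags (70 to 131) against 127.

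The 5 lowest counts among acetylated genes were those of Ndufb4 with 12.7 tags, Uqcrc1 and Ndufa4l2 with 17.1 each, Ndufa3 with 20.1, and Ndufv3 and Ndufs5, tied at 23.8. For Uqcrc1, Ndufa3, Ndufv3 and Ndufs5 the interval was within 2 kb of the RefSeq start, and for Ndufb4 it lay at the far end only. Uqcrc1, Ndufa3 and Ndufa4l2 had intervals of 500 bp, the smallest width in the list. Just outside the 2 kb limit were Atp5mpl, with an interval centred 2495 bp from an end, Ndufs6 at 2650, Ndufaf2 at 2702 and Atp5h at 3029.

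**Figure D4:**
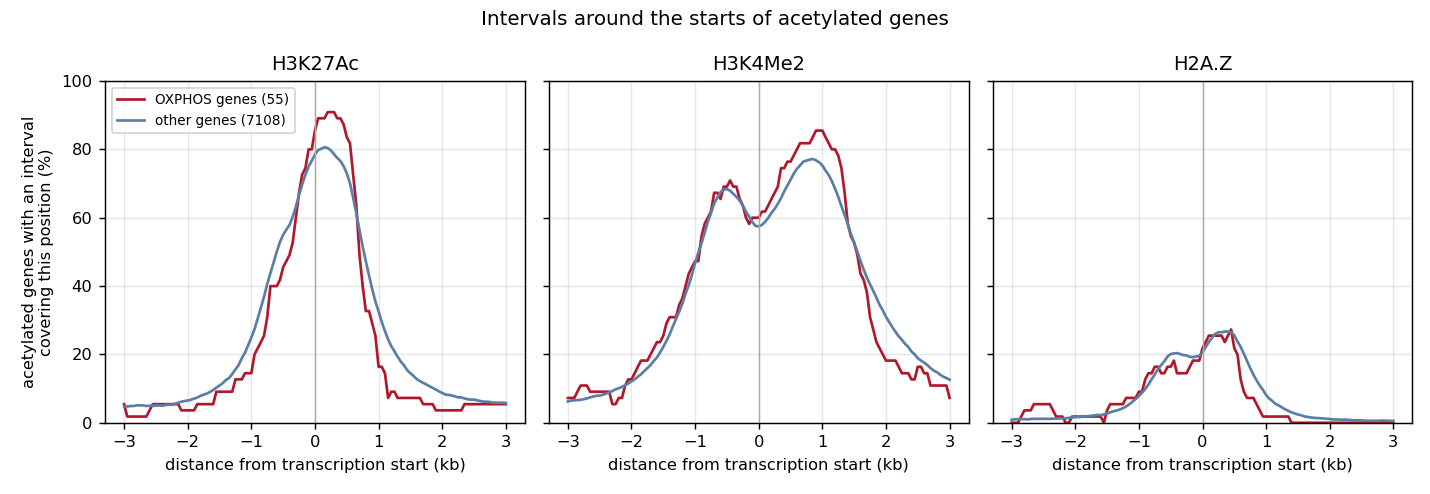
Share of acetylated genes with an H3K27Ac, H3K4Me2 or H2A.Z interval covering each position from 3 kb before to 3 kb after the RefSeq start, in percent, for OXPHOS genes and other genes. H3K27Ac covered more OXPHOS genes just after the start (90.9% against 80.4% at 200 bp) and fewer at 1000 bp (16.4% against 32.6%).

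The plot of coverage around the start shows where the intervals lay. At 200 bp after the start H3K27Ac covered 50 of 55 acetylated oxidative phosphorylation genes, 90.9% (80.4 to 96.1), against 80.4% of 7108 others, which equals the lower bound as rounded. At 1000 bp after the start it covered 16.4% (8.86 to 28.3) against 32.6%, and at 1000 bp before the start 14.5% (7.56 to 26.2) against 25%. Coverage was thus concentrated just after the start. H3K4Me2 had the reverse shape, with a dip to 60% at the start and 85.5% (73.8 to 92.4) at 1000 bp after it, against 57.5% and 75.3% of other genes, and the last interval includes the others' share. At 2000 bp after the start it covered 18.2% (10.2 to 30.3) against 31%. H2A.Z covered 25.5% at 200 bp and 1.82% at 1000 bp, against 26.0% and 8.12%.

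Many of these intervals were shared with a neighbour. The highest H3K27Ac interval lay within 2 kb of an end of another gene too in 38 of 68 cases (55.9%, 44.1 to 67.1), against 34.2% of other acetylated genes, and no interval lay at 2 genes of the rule. By the distance between gene ends, the closest neighbours were Atp5md and Taf5 at 8 bp, Ndufs1 and Eef1b2, 9 bp, Ndufv2 and Ankrd12, 9 bp, Ndufa7 and Rps28, 10 bp, Ndufaf3 and Impdh2, 10 bp, and Ndufa1 and Rnf113a1, 16 bp. In 4 of these 6 pairs, those of Ndufs1, Ndufv2, Ndufaf3 and Ndufa1, the highest interval was at both genes. The counts were 277, 425, 249 and 43.9 tags. For Ndufs1, Ndufaf3 and Ndufa1 the mark cannot be told apart between the gene and its neighbour. The 425 tags lay away from the start of Ndufv2, which had a separate interval of 222 tags there. Among acetylated genes with a neighbour's end within 1 kb the median width was 1193 bp (898 to 1663) for the rule's genes and 1544 bp for others, an interval that includes the others' median. Without one it was 1026 bp (955 to 1367) and 1445 bp.

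BMAL1 and CLOCK, which activate the period, cryptochrome and REV-ERB genes of the clock, had few peaks here. BMAL1 was found at 4 of the 96 genes (4.17%, 1.63 to 10.2), where 2.95% of all genes had it, and CLOCK at 3 (3.12%, 1.07 to 8.79), where 2.91% had it. Of the acetylated genes, 4 of 68 had BMAL1 (5.88%), against 5.71% of all acetylated genes, and 3 had CLOCK (4.41%), against 6.03%. Either was found at 7 of 68 (10.3%, 5.08 to 19.8), against 9.9% of all acetylated genes. The shares were thus close to the background, and the 7 peaks fell at 7 different genes, with no BMAL1 peak overlapping a CLOCK peak.

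The BMAL1 peak of Uqcr11, at chr10:80406326-80406656, was centred 330 bp after the start of the gene and had 10.9 normalized tags. The peak of Cox8a was centred 994 bp after the start and had 10.1 tags. That of Uqcrq lay 1011 bp inside the span and also at Gdf9, and that of Cox6c lay 558 bp outside it and also at Vps13b, each with 10.1 tags. The deposited scores were 13 to 15, where 13 was the threshold and the lowest score in the list, and 68.1% of its peaks scored 14 or less. The median BMAL1 peak had 10.1 tags, so these 4 were of the usual size in the list. At the clock genes measured the same way, BMAL1 had 106 tags at Dbp, 130 at Per1, 135 at Nr1d1 and 315 at Nr1d2, and peaks were present at 8 of 9 of them.

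CLOCK peaks had 6.7 tags at Ndufb6, centred 615 bp before the start in an H3K4Me2 interval, and 7.82 at Atp5d. The Atp5d peak also lay at Cbarp and within H3K27Ac and H3K4Me2 intervals, and overlapped only the edge of an H2A.Z interval. The third was of another size. At chr17:66077006-66077210 a CLOCK peak of 37.4 tags and score 68 ranked 40 of 1378 by score. Its fold over input was the lowest of the 3, 7.32 against 23.59 at Ndufb6 and 13.76 at Atp5d, and below the filter at 8. The peak lay 1687 bp beyond the far end of Ndufv2, 24451 bp from the start of that gene, in H3K27Ac and also at an end of Ankrd12. It thus met the rule of gene ends for Ndufv2 without being near its start. Of the 7 clock peaks, 6 had scores of 15 or less, 4 also lay at another gene, and 3 were within 2 kb of a RefSeq start. Uqcrq and Cox6c have no RefSeq start entry, so their peaks could not be counted by start. Counting starts only, 2 of 55 acetylated genes (3.64%) had BMAL1 or CLOCK, against 9.15% of others.

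PDX1, needed for the identity of beta cells, was found at 7 genes (7.29%, 3.58 to 14.3), where 6.89% of all genes had it. Of the acetylated genes 5 of 68 had it (7.35%, 3.18 to 16.1), where the share of all acetylated genes was 11.6%. The peaks had 19.4 tags at Ndufaf4, 16.9 at Uqcrfs1, the Rieske subunit, 16.4 at Atp5h, 12.8 at Ndufaf6, 11.8 at Atp5l, 7.15 at Ndufa4l2 and 6.64 at Ndufb3. Those at Atp5h, Ndufa4l2 and Ndufb3 also lay at another gene, Mrpl58, Stac3 and Fam126b.

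Most PDX1 peaks sat away from the ends. Only that of Ndufaf4 was within 1 kb, 352 bp inside its far end, and the other 6 lay 1092 to 1895 bp from an end. Within 1 kb, 0 of 68 acetylated oxidative phosphorylation genes had PDX1 (0 to 5.35%), against 6.11% of other acetylated genes. Within 50 kb the shares were 52.9% (41.2 to 64.3) and 68.9%. The corresponding shares within 50 kb were 19.1% (11.5 to 30.0) and 28.5% for BMAL1, and 20.6% and 19.1% for CLOCK. The acetylated oxidative phosphorylation genes had a median span of 7154 bp against 22671 bp for the others, so windows around both ends covered less sequence. The part of this in the shares was not tested.

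Promoter letters were searched on both strands in the 300-base windows, with 10 motifs in all, and are compared with all 21263 windows and with 7108 other acetylated genes. The strict NRF1 palindrome was found in 7 of 78 genes (8.97%, 4.42 to 17.4), against 2.5% of other acetylated genes and 1.33% of all promoters. The genes were Atp5g2, Atp5k, Cox6a1, Ndufa11, Ndufaf4, Ndufaf5 and Uqcrc1. A looser form that allows any base at the fifth position, and so includes these matches, was found in 19 (24.4%, 16.2 to 34.9), against 12.8% and 6.38%. A YY1 motif, AAGATGG followed directly by CGG, was found in 6 (7.69%, 3.57 to 15.8), against 2.74% and 1.21%: Atp5j, Ndufa9, Ndufaf8, Ndufs4, Ndufs6 and Ndufs7. In 5 of these 6 the match lay after the start, and in Atp5j 88 bases before it. These 78 genes include 23 without H3K27Ac. Among the 55 with it, the strict NRF1 motif was in 4 (7.27%, 2.86 to 17.3), the loose one in 11 (20%, 11.6 to 32.4) and YY1 in 3 (5.45%, 1.87 to 14.9). Set against other acetylated genes in this way, the intervals of the loose NRF1 and the YY1 motif included the others' share, and that of the strict one lay just above it.

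**Figure D5:**
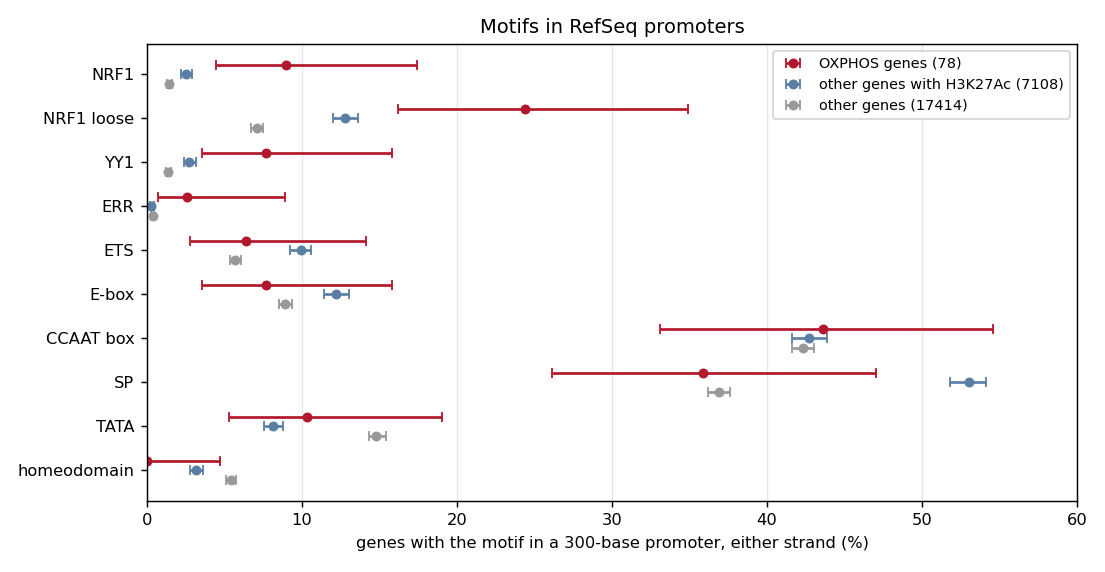
Share of genes whose 300-base RefSeq promoter holds each motif on either strand, in percent, with Wilson 95% intervals, for OXPHOS genes, other acetylated genes and all other genes. The OXPHOS genes shown are all 78 with a promoter entry, of which 55 were acetylated; the strict NRF1 motif was in 8.97% of them against 2.5% of other acetylated genes, and GGGCGGG (SP) in 35.9% against 53.0%.

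The plot of motifs by promoter set shows the rest. TCAAGGTCA, a site of the estrogen-related receptors, was found in 2 genes (2.56%, 0.706 to 8.88), against 0.281% and 0.334%, with a lower bound that was also above the others but rests on 2 genes. GGGCGGG, a box of the SP family, was found in 28 (35.9%, 26.1 to 47.0), below the 53.0% of other acetylated genes and near the 33.9% of all promoters. CCAAT was found in 34 (43.6%) against 42.7% and 38.2%, CCGGAAGT in 5 (6.41%) against 9.92% and 5.15%, and TATAAA in 8 (10.3%) against 8.15% and 12.6%. The share of all promoters counts windows, and a gene may have several. Counted by gene, other genes held CCAAT at 42.3%, GGGCGGG at 36.9%, CCGGAAGT at 5.69% and TATAAA at 14.8%. TAATTA, a core of homeodomain sites, was found in 0 of 78 (0 to 4.69%), against 3.17% and 4.53%. Counted by gene, 5.39% of other genes held it. The median number of CpG per window was 20 in the oxidative phosphorylation genes, 21 in other acetylated genes and 13 in other genes.

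CACGTG was found in 6 of 78 genes (7.69%, 3.57 to 15.8), against 12.2% of other acetylated genes and 7.84% of all promoters. They were Atp5g1, Atp5g3, Atp5l, Atp5pb, Ndufa7 and Ndufv1, and none of the 6 had a BMAL1 or CLOCK peak at an end, a count too small to read against the low background of these peaks. Of the stretches printed above, that of Atp5g1 held it 44 bases before the start and that of Ndufa7 72 before. Uqcrq and Cox6c, which had BMAL1 peaks, have no promoter entry.

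Other genes of the pathway were described from lists written by hand. Of all genes, 40.2% had H3K27Ac. Regulators of these genes had H3K27Ac at 7 of 9, with 754 tags at Yy1, 472 at Nrf1, 408 at Esrra and 360 at Gabpa, and 30.5 at the coactivator Ppargc1a. Of the pyruvate dehydrogenase and TCA cycle genes 16 of 17 had H3K27Ac, of the assembly factors outside the rule 31 of 35, of the electron carriers and quinone synthesis genes 11 of 16, of the genes for ATP, phosphate and proton transport 7 of 10, and of the genes for mitochondrial DNA transcription and maintenance 6 of 10. Their median counts ran from 99.0 tags for the electron carriers to 360 for the regulators, against 84.2 for the genes of the rule and 124 for other acetylated genes.

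Read across genes, H3K27Ac and H3K4Me2 counts went together only loosely. Spearman's rho was 0.31 over the 63 oxidative phosphorylation genes with both and 0.23 over 7910 others, where the genes share libraries and, in part, intervals and are not replicates. Counts and widths of H3K27Ac rose together with a rho of 0.89 in these genes and 0.87 in the others. The count is that of tags within the interval, so it is not independent of the width.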

How the data were processed

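Beta-TC6 ChIP-seq libraries, 1 for each of 6 targets, were analysed as deposited peak lists. The submitters' processing notes name Bowtie 1.1.1, HOMER and the build mm10. Peaks were called for each library separately against 1 of 2 inputs, per the file headers, with 4 times the input required. For H2A.Z the labels and the list's header name different inputs; the header was followed, and which is right was not settled, so its fold over input depends on this. For factor lists 13 tags and a Poisson p-value of 1e-04 were also required, per the file headers. The normalized tag count is the authors' signal scaled to 10000000 tags, per the file headers. The deposited score ranked peaks within its own list and the deposited fold over input, a ratio, gave the filter at 8. Other deposited columns (p-value, region size, and a fraction that describes how tags fall around the peak centre) served only to check the files.

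Here peaks were assigned to the ends of gene spans of a RefSeq table for GRCm38.p6, which has the coordinates of mm10, by peak centre within 2 kb; a gene with several peaks took the highest tag count. Wilson and order-statistic 95% intervals were computed in Python 3.11.15 with NumPy 2.4.6, pandas 2.3.3 and SciPy 1.17.1, and figures drawn with matplotlib 3.10.9. The assignment was tested on simulated data: all 200 peaks planted in the CLOCK list were found, and a direct search over 21887 genes gave 0 different calls. No test over the gene list was run. One gene of the rule is counted but not reported by name. Genes and lists were chosen with earlier results of these data known. Alternatives were windows of 1 and 5 kb, any overlap, stricter lists, starts only, and narrower gene sets.

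Named genes were those with a BMAL1, CLOCK or PDX1 peak, the 5 highest and 5 lowest H3K27Ac counts, the first 12 by symbol without H3K27Ac, the 5 highest H2A.Z counts, the Sdh genes, the tissue-restricted paralogs with their partners, and the 6 closest neighbour pairs. Other names were chosen after their values were seen, to fill out counts.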

Additional observations from a re-analysis of the deposited data

How the results depend on the processing

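No paired analysis was possible because each target had 1 library and no result came from a test. Of 11 results, all kept their value within its interval when any overlap replaced the peak centre, when only subunits were kept, or when the tissue-restricted paralogs were left out. With a window of 1 kb, PDX1 fell to 1.04% of all genes of the rule and 0% of the acetylated ones (3.54% and 6.26% of other genes). With 5 kb, H3K27Ac came to 82.3%, PDX1 to 16.7%, and PDX1 among acetylated genes to 16.5% (46.7%, 14.3% and 21.2% of other genes). At 8 times over input, H3K27Ac was at 30.2%, H3K4Me2 at 7.29% and H2A.Z at 13.5% (17.6%, 7.23% and 9.29% of other genes). Among acetylated genes at this filter, H2A.Z and H3K4Me2 were both at 17.2% (13.8% and 14.3% of others). The median H3K27Ac count was then 168 tags (110 to 281), an interval that includes the 241 of other acetylated genes. In the upper 50% of each list by score, H3K27Ac was at 50%, H3K4Me2 at 65.6%, H2A.Z at 31.2% and CLOCK at 1.04% (30.2%, 41.5%, 28.5% and 1.82% of other genes), and among acetylated genes H3K4Me2 was at 70.8%, BMAL1 or CLOCK at 4.17% and PDX1 at 2.08% (72.9%, 6.91% and 5.84% of others). With starts only, PDX1 was at 2.56% and BMAL1 or CLOCK among acetylated genes at 3.64% (5.24% and 9.15% of others). The median H3K27Ac width was 1205 bp (1010 to 1650) against 1555 with any overlap, and 1663 bp (1030 to 2440) against 1948 at 8 times input. Other genes with a span of up to 25 kb, added after the data were seen, had a median H3K27Ac count of 122 tags, with H2A.Z at 53.3% and PDX1 at 10.2% of the acetylated ones. The H3K27Ac library was the second shallowest, and weak intervals may be missing from its list.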
